A study of Mus musculus with 6 samples.

Results

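Baalc and Cthrc1, 2 protein-coding genes of mouse chromosome 15, were followed on hippocampal microarrays of Nrf2-knockout mice. Each gene was read by 1 probe, ASMM10P013408 for Baalc and ASMM10P008085 for Cthrc1, so the values below come from 2 of the 60915 probes on the array, of which 43366 were tested. The genes were chosen by the difference in signal between the genotypes in these same samples. The genotype differences are therefore given as a description, without a test. The study compared 3 Nrf2 (+/+) mice with 3 Nrf2 (−/−) mice, aged 3 to 4 months and on the outbred ICR background, with 1 array per mouse. It describes the Nrf2 (+/+) mice as male and names no sex beside the Nrf2 (−/−) mice. Nrf2 is the transcription factor encoded by Nfe2l2 on chromosome 2. Whole hippocampus was used, so fewer cells of a type and less RNA per cell cannot be told apart.

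Baalc (brain and acute leukemia, cytoplasmic) encodes a small cytoplasmic protein found in neural tissue and in hematopoietic progenitor cells, and its level is known as a marker in acute myeloid leukemia. Cthrc1 (collagen triple helix repeat containing 1) encodes a secreted glycoprotein that was first described in injured arteries. It limits collagen matrix deposition and promotes the planar cell polarity branch of Wnt signaling by stabilizing the complex of Wnt ligands with Frizzled receptors and the co-receptor Ror2. Nrf2 itself activates detoxification and redox genes through antioxidant response elements.

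In the RefSeq gene order of GRCm38.p6, Baalc (gene ID 118452) and Cthrc1 (gene ID 68588) are near neighbours on chromosome 15 with 6 annotated genes between them. Of these 6, 1 is protein-coding, and it is Fzd6, which encodes a Frizzled receptor of the Wnt pathway. Both members lie on the plus strand in the study's gene lists. The deposited files give probes no gene name, and a name could be given only to the 690 probes of mRNAs and lncRNAs that the study listed as changed. None of the 11 protein-coding genes next to the members (Fzd6, the 5 before Baalc and the 5 after Cthrc1) was among them, so Fzd6, Atp6v1c1, Slc25a32 and the other neighbours were not analysed here.

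The arrays had median signals of 87.7 to 109 intensity units in Nrf2 (+/+) mice and 138 to 184 in Nrf2 (−/−) mice before normalization, and between 39887 and 46123 of the 60915 probes per array were well above background. The log2 signal of Nfe2l2, the targeted gene, averaged 12.20 ± 0.24 (SD, n = 3) with Nrf2 present and 7.93 ± 0.10 (SD, n = 3) in the knockout, so it was lower in the mice labelled as knockouts (adjusted p = 0.000629 from limma). None of the 8 hippocampal neuron markers on the marker list could be named on the array, so the labelled tissue was not checked against them. The RNA was taken from separate mice, and the labels do not say that equal replicate numbers pair them.

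Baalc was brighter on every Nrf2 (−/−) array. Its background-subtracted spot signal was 682, 360 and 521 intensity units in Nrf2 (+/+) replicates 1, 2 and 3. The Nrf2 (−/−) arrays read 3714, 3020 and 3333 in the same order. Local background around this spot was between 16.5 and 26.5 units, so the spot stood well above it on all 6 arrays. No array had the spot saturated or marked as an outlier.

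After quantile normalization, the log2 signal of Baalc was 9.55, 8.82 and 9.45 in Nrf2 (+/+) replicates 1, 2 and 3. In Nrf2 (−/−) replicates 1, 2 and 3 it was 11.46, 11.30 and 11.55. The genotypes did not overlap, and the lowest Nrf2 (−/−) array lay 1.75 log2 units (3.35-fold) above the highest Nrf2 (+/+) array. The means were 9.28 ± 0.40 (SD, n = 3) and 11.44 ± 0.13 (SD, n = 3), a log2 difference of 2.16 (standard error 0.24), or 4.47-fold. Standard errors here and below are the moderated ones of limma, which borrow variance from all tested probes. Within a genotype the arrays spanned 0.73 log2 units in Nrf2 (+/+) mice and 0.25 in Nrf2 (−/−) mice, and Nrf2 (+/+) replicate 2 alone accounted for most of the wider span.

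Cthrc1 was also brighter on every Nrf2 (−/−) array than on any Nrf2 (+/+) array. Its spot signal was 249, 96.8 and 174 intensity units in Nrf2 (+/+) replicates 1, 2 and 3. In Nrf2 (−/−) replicates 1, 2 and 3 it was 2478, 858 and 1596. Local background was between 18 and 29 units, and the spot was well above background on all 6 arrays, unsaturated and not marked as an outlier.

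The normalized log2 signal of Cthrc1 was 8.16, 6.88 and 7.95 in Nrf2 (+/+) replicates 1, 2 and 3, and 10.85, 9.46 and 10.49 in Nrf2 (−/−) replicates 1, 2 and 3. The gap between the genotypes was 1.30 log2 units (2.46-fold), which is close to the span within each of them, 1.28 in Nrf2 (+/+) mice and 1.39 in Nrf2 (−/−) mice. The means were 7.66 ± 0.69 (SD, n = 3) and 10.26 ± 0.72 (SD, n = 3). The log2 difference was 2.60 (moderated standard error 0.45), or 6.08-fold. For a probe with a spread as wide as this one, the moderated error is smaller than its own arrays alone would give.

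**Figure D1:**
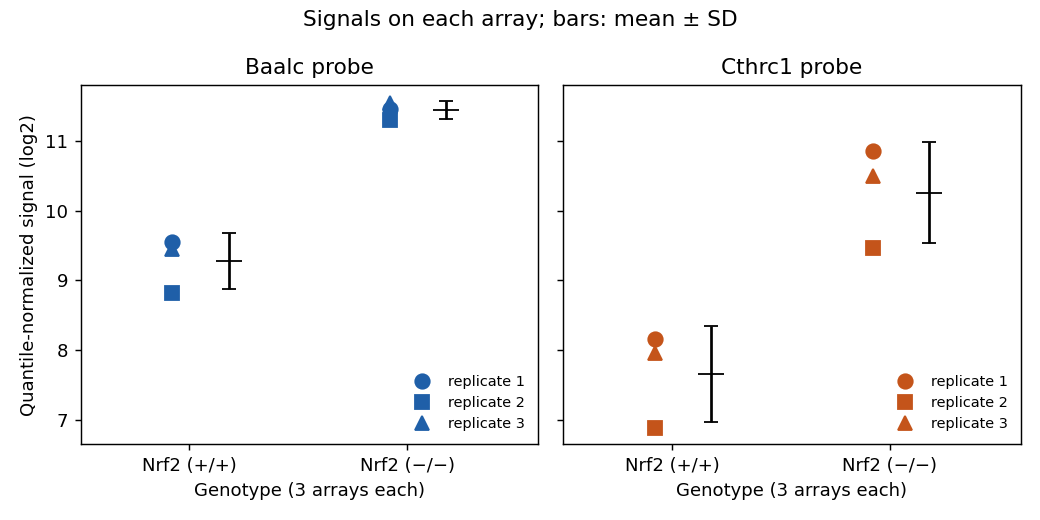
Quantile-normalized log2 signals of the Baalc probe (left) and the Cthrc1 probe (right) on each of the 3 Nrf2 (+/+) and 3 Nrf2 (−/−) arrays, with the marker giving the replicate number and the bars the mean ± SD. The Nrf2 (−/−) arrays lie at 11.30 or higher for Baalc and at 9.46 or higher for Cthrc1, above all Nrf2 (+/+) arrays.

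Over the whole array, 4.25% of the 43366 tested probes had all 3 Nrf2 (−/−) arrays above all 3 Nrf2 (+/+) arrays, and 6.21% had them all below. Both members are among the former, which their choice fixed. The log2 differences of all tested probes had a median of −0.01, with a 5th percentile of −0.54 and a 95th percentile of 0.55. As measured, 5 tested probes had a larger rise than Cthrc1 and 18 a larger rise than Baalc. For a probe near background in Nrf2 (+/+) mice the size of the measured rise is uncertain, and so is its place in this order.

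The members differed in their spread between arrays of one genotype. The pooled SD within genotypes was 0.29 log2 units for Baalc, and 43.8% of the tested probes had a smaller one. For Cthrc1 it was 0.70, and 93.7% of the tested probes had a smaller one. The difference between the genotypes was 7.35 times the pooled SD for Baalc and 3.69 times for Cthrc1. The larger fold change thus belongs to the gene with the larger spread between arrays. With 1 array per mouse, differences between mice and between arrays cannot be told apart.

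The mean log2 difference between the genotypes was 0.44 larger for Cthrc1 than for Baalc, and the size of this excess rested on single arrays. Without Nrf2 (−/−) replicate 1 the differences were 2.31 for Cthrc1 and 2.15 for Baalc, and without Nrf2 (−/−) replicate 2 they were 3.01 and 2.23. Without Nrf2 (+/+) replicate 2 they were 2.21 and 1.93. With normexp background correction they were 2.22 and 2.03. The log2 signal of Cthrc1 minus that of Baalc, taken on the same array, was −1.39, −1.95 and −1.51 in Nrf2 (+/+) replicates 1, 2 and 3. In Nrf2 (−/−) replicates 1, 2 and 3 this quantity was −0.61, −1.84 and −1.06. The genotypes overlapped in it, with Nrf2 (−/−) replicate 2 below Nrf2 (+/+) replicates 1 and 3, and the difference in rise was not tested. Between mice whose arrays shared a scan, the difference was larger for Cthrc1 than for Baalc in both pairs, at 2.69 against 1.90 in replicates 1 and 2.54 against 2.10 in replicates 3. These differences compare the change of 2 probes and not their absolute levels, since probes differ in how brightly they bind.

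The header of each file gives the time of the scan, and arrays with the same time were taken to be scanned together and to share a slide, which the files do not state. Replicates 1 of both genotypes shared a scan, as did replicates 3, while each replicate 2 was scanned on its own. Within the scan of replicates 1, Baalc was higher by 1.90 log2 units in the Nrf2 (−/−) mouse, and within that of replicates 3 by 2.10. For Cthrc1 the differences within these scans were those given above, 2.69 and 2.54. By their times the scans were also divided here into an earlier and a later session, which the files do not name. The earlier session held 1 Nrf2 (+/+) and 2 Nrf2 (−/−) arrays, and the later one 2 and 1. In the earlier session the log2 difference was 1.82 for Baalc and 1.99 for Cthrc1, and in the later session 2.42 and 3.08. The direction was the same within each scan and session that held both genotypes.

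Other spots printed nearby gave a further measure of the local conditions on the slide. The 48 non-control spots within 3 rows and 3 columns of the Baalc spot had a median log2 difference between the genotypes of −0.009, and the 47 around the Cthrc1 spot had one of 0.048. These neighbouring spots ranged from −1.68 to 0.60 around Baalc and from −0.48 to 0.79 around Cthrc1, beside the 2.16 and 2.60 of the members.

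**Figure D2:**
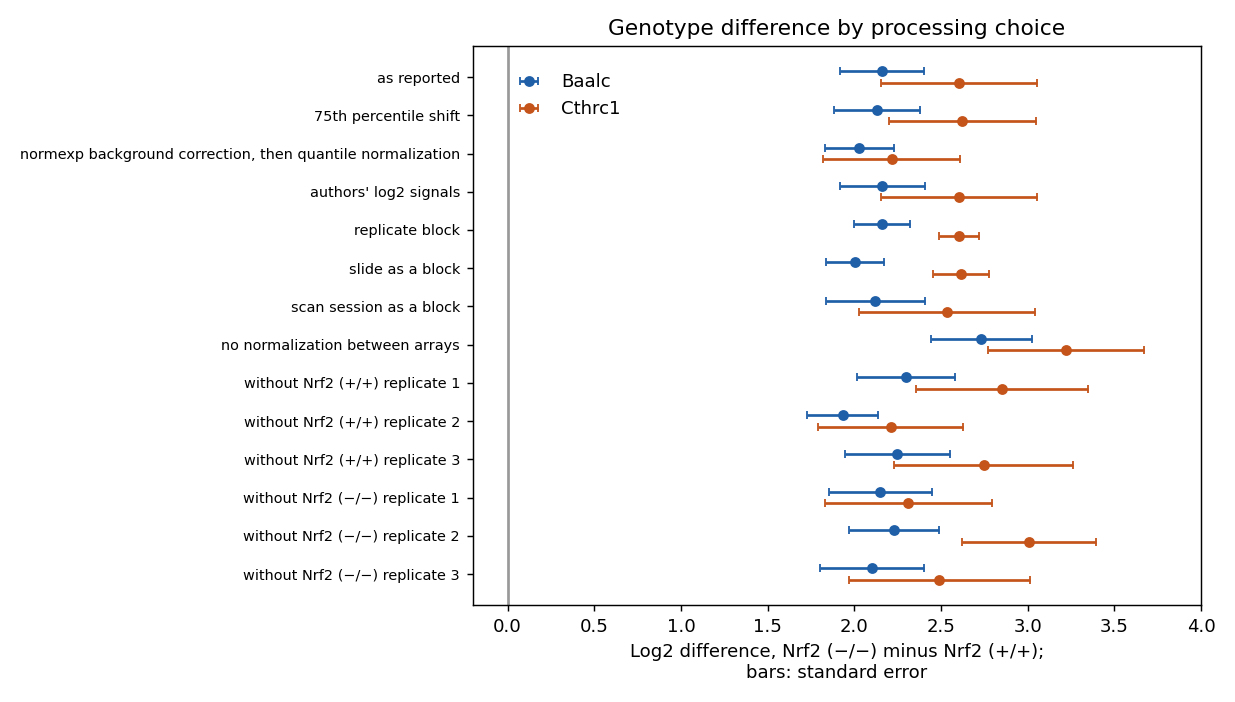
Log2 difference between Nrf2 (−/−) and Nrf2 (+/+) mice for Baalc and Cthrc1 under each processing choice and with each array left out, with moderated standard errors as bars. All values lie to the right of 0, from 1.93 to 2.73 for Baalc and from 2.21 to 3.22 for Cthrc1, the highest without normalization between arrays.

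Whether the members vary together among arrays of the same genotype does not depend on the contrast by which they were chosen. Each array's deviation from its genotype's mean was taken for this purpose. In Nrf2 (+/+) mice the deviations of Baalc were 0.28, −0.45 and 0.18 log2 units for replicates 1, 2 and 3. Those of Cthrc1 were 0.50, −0.78 and 0.29. The order of the 3 mice was the same for both genes, with replicate 1 highest and replicate 2 lowest.

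In Nrf2 (−/−) mice the deviations of Baalc were 0.02, −0.14 and 0.12 for replicates 1, 2 and 3. Those of Cthrc1 were 0.58, −0.81 and 0.22. Replicate 2 was again lowest for both genes, while replicate 3 was highest for Baalc and replicate 1 for Cthrc1. Among Nrf2 (−/−) mice Baalc moved by 0.25 log2 units in all and Cthrc1 by 1.39 over the same 3 mice, a 1.19-fold and a 2.62-fold range.

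**Figure D3:**
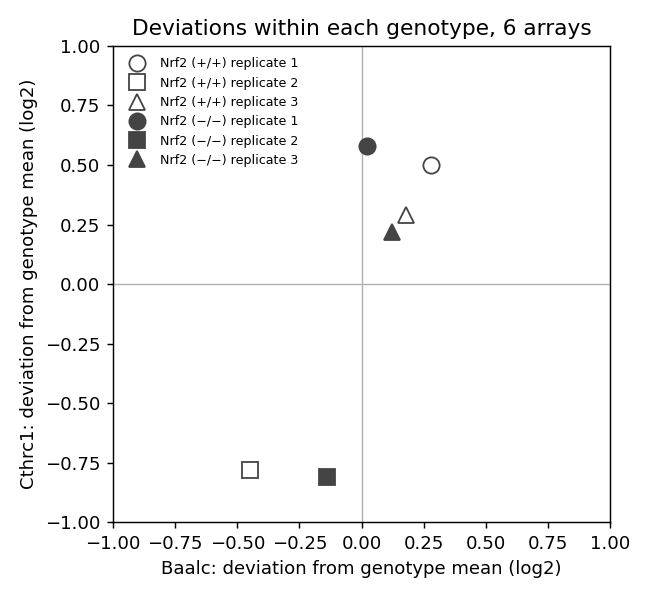
Deviation of each array from its genotype's mean log2 signal, for Baalc on the horizontal axis and Cthrc1 on the vertical axis, with open markers for Nrf2 (+/+) and filled markers for Nrf2 (−/−) mice. Both replicate 2 arrays lie at the lower left, at −0.45 and −0.78 in Nrf2 (+/+) and at −0.14 and −0.81 in Nrf2 (−/−) mice, and the other 4 arrays lie at the upper right.

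This covariation was not tested. As a description, Pearson's r between the 6 pairs of deviations was 0.84. Of all other tested probes, 9.47% had deviations that correlated at least this strongly with those of Baalc, and 18.1% did so with those of Cthrc1. The arrays share this pattern widely. Replicate 2 was the lowest array of both genotypes for 30.7% of the tested probes, and it was the lowest of the 3 Nrf2 (+/+) arrays for 47.4% and of the 3 Nrf2 (−/−) arrays for 45.9%. As close a covariation was thus found with 4108 other probes for Baalc and with 7840 for Cthrc1, and the part that the replicate 2 arrays have in it was not tested.

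The 688 other named and tested probes, all listed by the study as changed between the genotypes, were ranked by how closely their log2 signals followed each member over the 6 arrays. These values describe likeness of pattern only, and the difference between the genotypes that all these probes share sets much of it. Closest to Baalc were Mcam, a cell adhesion molecule of the vessel wall (r = 0.99), a lncRNA listed under Tmeff2 (0.99, well above background on 3 of 6 arrays), the kinase gene Dyrk2 (0.98) and 2 probes of the lncRNA 5031434O11Rik (0.98 each, 1 of them well above background on 3 of 6 arrays). Cthrc1 was at place 15 in this order with r = 0.97. Closest to Cthrc1 were a lncRNA listed under Cpm (0.99), Ccnd1, which encodes the G1 cyclin D1 (0.99), Sdc2 on chromosome 15, a heparan sulfate proteoglycan of the cell surface (0.98), Pced1a (0.98) and the amino acid transporter gene Slc43a1 (0.98, well above background on 3 of 6 arrays).

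Sdc2 is the chromosome 15 mRNA that followed Cthrc1 most closely. Its log2 signal was 10.44, 9.80 and 10.34 in Nrf2 (+/+) replicates 1, 2 and 3, and 11.13, 10.74 and 11.07 in Nrf2 (−/−) replicates 1, 2 and 3. It shares the low replicate 2 of both genotypes, and its rise was 0.78 log2 units (standard error 0.24).

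On the deviations within genotypes, which leave out the contrast, the order was different. Closest to Baalc were the targeted gene Nfe2l2 (r = 0.99), Zfp54 (0.99), Sec14l3 (0.98), Ano6 of chromosome 15 (0.98) and Ifi44 (0.98), all of them lower in Nrf2 (−/−) mice. Closest to Cthrc1 were Mcam (0.99), Hrsp12 (0.98) and Ly6a (0.98) of chromosome 15, Ccnd1 (0.98) and Gabrp (0.98, well above background on 3 of 6 arrays). Of these, Mcam and Ccnd1 were higher and Hrsp12, Ly6a and Gabrp lower in Nrf2 (−/−) mice. Ly6a was read by 4 named probes, and the others had r of 0.90, 0.95 and 0.94 with Cthrc1. Cthrc1 stood at place 70 in the order of Baalc, and Baalc at place 75 in that of Cthrc1. The partners named are the highest of 688 values from 6 arrays and describe likeness of pattern only. For Baalc the deviations were wider in Nrf2 (+/+) mice (0.28, −0.45 and 0.18) than in Nrf2 (−/−) mice (0.02, −0.14 and 0.12). The low Nrf2 (+/+) replicate 2 thus weighs most in its values of r. A link between Nfe2l2 and Baalc was not tested.

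The study's lists hold 32 mRNA probes of chromosome 15, the 2 members included, of which 12 were higher and 20 lower in Nrf2 (−/−) mice. All of them were listed for this contrast, so the counts are a description of the lists. The share that was higher was 37.5% on chromosome 15 and 25.5% among the 380 listed mRNA probes of other chromosomes. Over all tested probes, 1.26% were higher and 2.66% lower at an unadjusted p under 0.05 from limma with a fold change above 1.5, which is 545 and 1154 probes. This balance turned with the scaling and with 1 array, at 1002 higher and 968 lower with the 75th percentile shift and at 2382 higher and 2018 lower without Nrf2 (+/+) replicate 2.

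Baalc and Cthrc1 had the largest rises of the 32 chromosome 15 mRNA probes. The next mRNA was Col2a1, the type II collagen gene, with 8.33 ± 0.64 (SD, n = 3) in Nrf2 (+/+) and 9.64 ± 0.48 (SD, n = 3) in Nrf2 (−/−) mice, a log2 difference of 1.31 (standard error 0.38). The other 9 higher probes ranged from 0.59 for Prpf40b to 1.13 for Gpr84, a receptor of myeloid cells, with the immediate early gene Arc at 1.08 between them. The 20 lower probes ranged down to −2.06 (standard error 0.48) for Enpp2, which encodes the lysophospholipase autotaxin. Of the 30 probes other than the members, 29 were well above background on all 6 arrays.

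**Figure D4:**
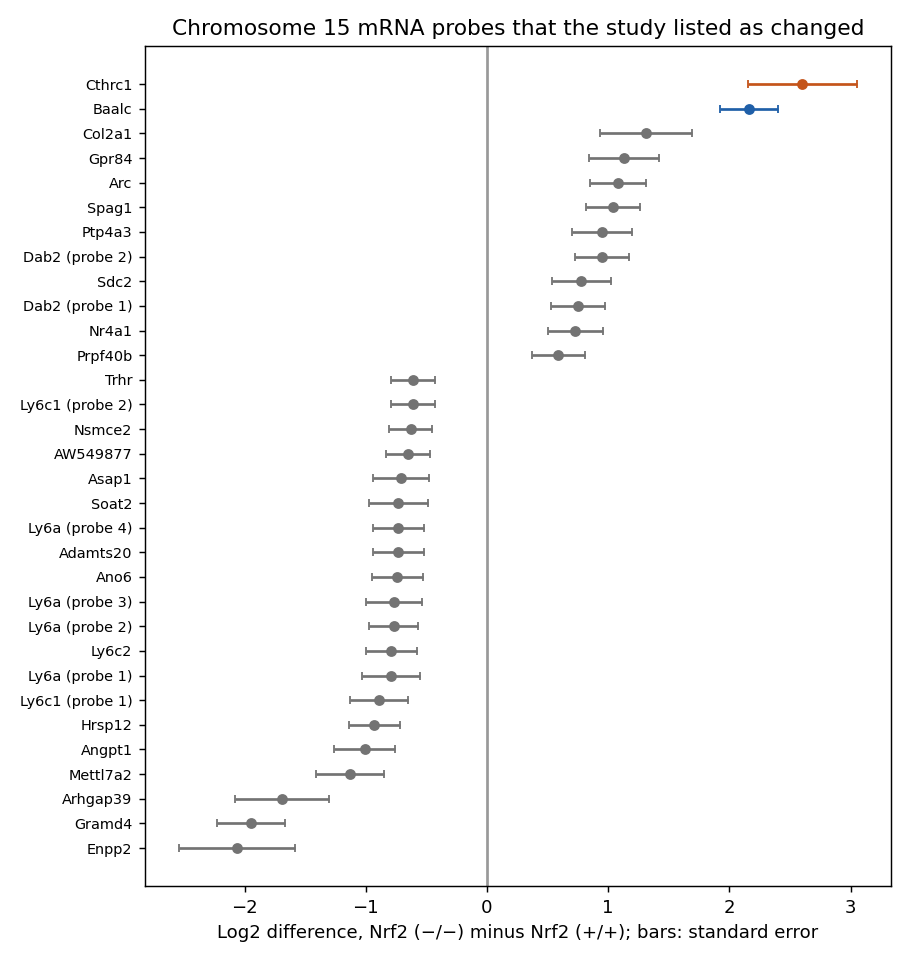
Log2 difference between Nrf2 (−/−) and Nrf2 (+/+) mice, with moderated standard errors as bars, for the 32 chromosome 15 mRNA probes that the study listed as changed. Cthrc1 at 2.60 and Baalc at 2.16 lie above the next probe, Col2a1 at 1.31, and 20 probes lie below 0.

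Among 17 listed lncRNA probes of chromosome 15, 7 were higher and 10 lower. The share that was higher was 41.2%, against 15.7% of the 261 listed on other chromosomes. Of the 17 probes, 11 were well above background on all 6 arrays. The 3 that were so in no Nrf2 (+/+) mouse were all among the higher ones. The difference of humanlincRNA2248 measured 2.18 log2 units, but its probe was not well above background in any Nrf2 (+/+) mouse. AK081279 measured 1.86, with 1 of 3 Nrf2 (+/+) arrays well above background. The lncRNA probe ASMM10UP662, well above background on all 6 arrays, was at 8.78 ± 0.17 in Nrf2 (+/+) and at 10.59 ± 0.44 in Nrf2 (−/−) mice (SD, n = 3 each), a difference of 1.80. The next lncRNA was AK139259, at 1.48, with log2 signals of 9.04, 8.99 and 8.85 in Nrf2 (+/+) replicates 1, 2 and 3 and of 10.72, 10.18 and 10.41 in Nrf2 (−/−) replicates 1, 2 and 3. Its arrays of one genotype differed by less than those of Cthrc1.

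The gene lists drawn up for the known roles of the members were covered only through the study's lists. None of 21 Wnt planar cell polarity genes and none of 11 genes of ERK signaling and Klf4, which are tied to Baalc, had a named probe. Of 7 collagens only Col2a1 was named. Its log2 signals were 8.84, 7.61 and 8.55 in Nrf2 (+/+) replicates 1, 2 and 3, in the same order as the members. In Nrf2 (−/−) replicates 1, 2 and 3 they were 9.08, 9.96 and 9.88, where replicate 2 was highest and not lowest.

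Markers of other cell types that a dissected hippocampus may hold could be named for 4 of the listed genes, each of them listed by the study for this contrast. Of 6 ependymal cell markers 2 were named. Tmem212 had log2 signals of 9.03, 7.64 and 8.77 in Nrf2 (+/+) replicates 1, 2 and 3 and of 9.39, 10.42 and 10.21 in Nrf2 (−/−) replicates 1, 2 and 3. Nrf2 (−/−) replicate 2, the lowest of its genotype for Baalc and Cthrc1, was the highest for Tmem212. Tekt1, a structural protein of cilia, did not stand well above background in any Nrf2 (+/+) mouse but did in all 3 Nrf2 (−/−) mice, where its log2 signal was between 4.84 and 5.21.

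Of 10 choroid plexus markers only Enpp2 was named, and it was lower in Nrf2 (−/−) mice, with 11.79, 11.47 and 10.95 in Nrf2 (+/+) replicates 1, 2 and 3 against 9.22, 10.39 and 8.42 in Nrf2 (−/−) replicates 1, 2 and 3. Of 4 striatal neuron markers only Drd2, the dopamine D2 receptor gene, was named, at 8.34 ± 0.16 (SD, n = 3) and 9.11 ± 0.43 (SD, n = 3). None of the 11 fibroblast, 6 smooth muscle and pericyte, 5 endothelial, 7 astrocyte or 6 microglial markers had a named probe. The part of other cell types in the signals of Baalc and Cthrc1 was not tested.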

How the data were processed

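Hippocampal RNA was labeled with Cy3 and hybridized to Arraystar mouse lncRNA arrays with random priming. Spot intensities were read by the authors in Agilent Feature Extraction 11.0.1.1, which subtracts the background within an array, on a design that follows mm9. They deposited these intensities and a table of log2 signals for 60902 probes, quantile normalized in GeneSpring GX. The median absolute gap between their log2 signals and the values used here was 0.000974.

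Outlier spots (16 to 91 per array) were set to missing, spots were averaged per probe and log2 signals were quantile normalized. A probe was kept if 3 or more of the 6 arrays had it well above background and none lacked a value. The genotypes were compared with limma 3.58.1 in R 4.3.3 with Benjamini-Hochberg adjustment. The fit was tested on simulated data with 50 changed probes at each fold change. After adjustment it called 0 of them at 1.5-fold, 3 at 2-fold, 26 at 4-fold and 40 at 16-fold, with 5 false calls. The simulated noise was independent for each probe, without the deviations that probes of a real array share. The number of false calls therefore does not describe the error in the real data.

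Gene names came from the study's lists of changed mRNAs and lncRNAs, whose 715 entries each matched 1 probe (relative tolerance 1e-04). The genes described were the members, the 5 named probes most like each by either measure, named list members and Nfe2l2, and 1 result of the lists is not reported here. Chromosome 15 genes with the extreme changes, Sdc2 and the named lncRNAs of that chromosome were picked after their values were seen. Members and lists were chosen with earlier results of these data known. The alternatives were other normalizations, filters, tests, blocks and each array left out. The number of arrays limits the precision.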

Additional observations from a re-analysis of the deposited data

How the results depend on the processing

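Baalc and Cthrc1 were higher in Nrf2 (−/−) mice under all 13 alternatives run for them. Leaving out 1 array at a time gave log2 differences from 1.93 to 2.30 for Baalc and from 2.21 to 3.01 for Cthrc1, both lowest without Nrf2 (+/+) replicate 2. Without normalization between arrays, a choice added after seeing the data, the difference was 2.73 for Baalc, more than 1 SD above the reported value. With normexp background correction it was 2.03 for Baalc and 2.22 for Cthrc1. The labels do not say that equal replicate numbers pair the mice, and the deviations of equally numbered arrays correlated at −0.15, 0.43 and 0.81, with the best match at the same number for 2 of 3, so the block was kept as an alternative. The replicate block left the differences at 2.16 and 2.60, with standard errors of 0.16 and 0.12. The same array was lowest for both genes in 2 genotypes, and in 1 to 2 with single arrays left out, the 1 being without Nrf2 (−/−) replicate 2.

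Of all tested probes, 545 were higher and 1154 lower at the unadjusted threshold with its fold limit, and 21 passed after adjustment in limma. The 75th percentile shift gave 1002 higher and 968 lower. Normexp correction gave 229 higher and 640 lower. The replicate block gave 1220 higher and 1382 lower, and 0 probes after adjustment in limma against 7081 at an unadjusted p under 0.05. The slide, inferred from equal scan times, as a block gave 2277 higher, 2568 lower and 524 after adjustment. Each replicate 2 array stands alone in that block, so only replicates 1 and 3 bear on its differences. Few degrees of freedom were left there, so these counts are uncertain. The methods' plain test gave 285 higher and 773 lower, and 0 after adjustment against 2530 at an unadjusted p under 0.05. No filter on dim probes, or one requiring all 6 arrays, left 9 after adjustment. Leaving out single arrays gave 354 to 2382 higher, 773 to 2018 lower and 8 to 193 after adjustment. Both upper counts of direction came without Nrf2 (+/+) replicate 2, and the 193 came without Nrf2 (−/−) replicate 2. The cause was not tested. The alternatives for the chromosome 15 neighbours were not run, as none of their probes could be named.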
